A study of Mus musculus with 3 samples.

Results

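The STAT transcription factors described here are Stat2, Stat3, Stat4, Stat5a, Stat5b and Stat6, 6 of the 55536 mouse genes in the main gene table. They were taken as listed and found by their Ensembl IDs, which were paired with symbols through the transcript names of the second transcript table, and all 6 were found. The assay was polyA RNA-seq of activated regulatory T cells, which are CD4 T cells that restrain immune responses under the transcription factor Foxp3. The primary cells came from a male adult aged 4 months. Its strain, Foxp3CreERT2 x Rosa26YFP, carries a drug-inducible Cre recombinase at the Foxp3 locus and a fluorescent reporter at Rosa26. The labels give bone marrow hematopoietic cells as their origin and do not give the sort. Technical replicates 1, 2 and 3 of a single biological replicate (1) were sheared to 100 to 300 bp, and all 3 libraries carry both alleles. There is 1 group and no control, so no condition was compared, and p-values measure only the spread between these libraries.

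STAT proteins lie inactive in the cytoplasm until a cytokine receptor and its bound Janus kinases (JAKs) are activated. A JAK then phosphorylates the STAT on a tyrosine near its C-terminus, the STAT pairs with another through SH2 domains, and the pair enters the nucleus and binds DNA. Which STAT is used depends on the receptor: interleukin-2 signals mostly through STAT5A and STAT5B, interleukin-4 through STAT6, interleukins 6, 10, 21 and 27 largely through STAT3, interleukin-12 through STAT4, and type I interferon through STAT2 with IRF9. In regulatory T cells STAT5 is known for maintaining Foxp3 downstream of interleukin-2, and SOCS proteins, phosphatases and PIAS proteins restrain the pathway. RNA levels do not show which proteins were phosphorylated, and activation was not measured here.

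Expected counts summed over genes were 10981924, 9700630 and 6667391 in replicates 1, 2 and 3, so values from replicate 3 rest on the fewest reads. The labelled cell type was checked on fixed markers. All 6 regulatory T cell markers and all 5 T cell markers had at least 1 TPM (a level per transcript length within a library) in every library. Their summed levels spanned 1984 to 2578 TPM and 6577 to 10053 TPM. Of the regulatory T cell markers, Foxp3 had the lowest mean, with 29.5, 28.7 and 49.8 TPM in replicates 1, 2 and 3. Izumo1r had the highest mean, with 843.8, 999.3 and 449.6 TPM. B cell markers summed to 77.9 to 109 TPM (5 of 6 detected), plasma cell markers to 48.3 to 151 TPM (3 of 4), CD8 markers to 13.0 to 16.2 TPM (1 of 2), myeloid markers to 9.21 to 23.9 TPM (3 of 5) and NK markers to 3.24 to 9.34 TPM (1 of 3). Erythroid markers summed to 798 TPM in replicate 1, 5.30 TPM in replicate 2 and 23.4 TPM in replicate 3. The part of these other cells in the levels below was not tested.

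Sequences that mark the forms and copies of these genes are given first, because they set what the reads could tell apart. The coding sequences of Stat5a and Stat5b, neighbouring genes on chromosome 11, were identical at 90.9% of 2341 aligned bases. As a share of the longer coding sequence this pair matched at 89.4%, whereas every other pair of the 6 genes matched at 49.7% to 60.1%. Stat5a and Stat5b shared 13 identical coding runs of at least 31 bases and 3 of at least 100 bases. The longest run, 324 bases over coding bases 571 to 894 of both, is shown by its first 300 bases because a read inside it fits both genes. Those 300 bases lie in 3 exons of Stat5a at mm10 chr11:100874023-100874959 on the plus strand and in 3 exons of Stat5b at chr11:100797765-100798701 on the minus strand.
Shared run of Stat5a and Stat5b: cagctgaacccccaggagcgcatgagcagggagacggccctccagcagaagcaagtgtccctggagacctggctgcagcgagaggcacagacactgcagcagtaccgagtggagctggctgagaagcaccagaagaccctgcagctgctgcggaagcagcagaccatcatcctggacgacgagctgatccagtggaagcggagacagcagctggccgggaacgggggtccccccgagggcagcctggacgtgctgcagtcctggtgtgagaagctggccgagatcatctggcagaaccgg
The coding ends differ and are shown for contrast, as the last 90 bases, with the bases after the last shared run of at least 15 bases in capitals. That run is 18 bases long and is followed by 59 bases in Stat5a and 23 in Stat5b.
Stat5a, chr11:100883904-100883993, plus strand: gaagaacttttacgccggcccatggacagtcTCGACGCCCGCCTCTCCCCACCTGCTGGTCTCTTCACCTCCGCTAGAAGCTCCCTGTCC
Stat5b, chr11:100783099-100783188, minus strand: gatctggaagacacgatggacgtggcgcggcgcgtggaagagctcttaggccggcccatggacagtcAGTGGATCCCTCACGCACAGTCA

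For Stat3, the splice that separates the alpha and beta forms is shown, because the transcript shares below rest on it. Stat3 lies at mm10 chr11:100885098-100939540 on the minus strand. In the GENCODE M21 models, a coding exon of 113 bases at chr11:100889478-100889590 is used whole in alpha, and beta joins the preceding exon of 43 bases to a point 50 bases further in. The lines run 5′ to 3′ along the spliced RNA over chr11:100889516-100889928. Capitals mark the 50 bases that beta skips in the first line, and the stop codon that ends the beta reading frame in the second.
Stat3 alpha: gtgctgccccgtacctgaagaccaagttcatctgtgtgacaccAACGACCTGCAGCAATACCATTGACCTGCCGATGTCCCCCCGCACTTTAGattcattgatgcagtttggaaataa
Stat3 beta: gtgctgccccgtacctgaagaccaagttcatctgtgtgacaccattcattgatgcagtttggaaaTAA
Beta keeps 22 coding bases after the join, so its coding sequence has 2166 bases, against 2310 in alpha (Stat3-203). Alpha retains a C-terminal transactivation domain that beta lacks.

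Stat6 had the highest mean level of the 6 genes in the main table. Stat6 (ENSMUSG00000002147, mm10 chr10:127642986-127660957, plus strand) is the main STAT of interleukin-4 and interleukin-13 receptors. Its level was 123.1, 157.6 and 75.4 TPM in replicates 1, 2 and 3, from 3164, 3413 and 1157 expected counts. Replicate 2 was highest and replicate 3 lowest, 2.09-fold apart, and the mean was 118.7 ± 41.3 TPM (SD, n = 3). It ranked 1097 among 21951 protein-coding genes by mean level, of which 9980 had at least 1 TPM in every library.

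Stat4, the STAT of interleukin-12 and a driver of type 1 helper T cell programs, had a mean close to that of Stat6 and a smaller spread. Stat4 (ENSMUSG00000062939, chr1:51987148-52107189, plus strand) had 115.3, 123.6 and 101.6 TPM from 2315, 2011 and 1212 expected counts. Stat4 was below Stat6 in replicates 1 and 2 and above it in replicate 3. The difference Stat6 minus Stat4 averaged 5.23 ± 30.1 TPM, less than its spread over libraries. The whole-number counts of the M4 table were 4280, 4631 and 1629 for Stat6 and 4306, 3787 and 2352 for Stat4, and per coding base they placed Stat6 below Stat4 on average, at 153.6 ± 52.1 against 174.8 ± 14.0 on a TPM scale (SD, n = 3 each). The second quantification likewise gave 54.4 ± 17.2 TPM for Stat6 and 59.9 ± 4.32 TPM for Stat4. The order of this pair therefore depended on the table. The values per coding base, here and below, rest on the inference that M4 counts cover coding sequence, which was not tested.

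Stat3 (ENSMUSG00000004040), used by interleukins 6, 10, 21 and 27, had 64.3, 84.2 and 89.9 TPM (79.5 ± 13.4, SD, n = 3) from 2186, 2359 and 1433 expected counts. Its lowest library was replicate 1, unlike that of Stat6 and Stat4. Stat4 exceeded Stat3 in 3 of 3 libraries without overlap of the library values, by 34.0 ± 20.2 TPM, but in the second quantification their values overlapped (2 of 3 libraries).

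Stat2 (ENSMUSG00000040033, chr10:128270559-128292849, plus strand), which forms the type I interferon complex with IRF9, had 51.9, 57.3 and 40.9 TPM (50.04 ± 8.37) from 1280, 1104 and 622 expected counts. It lay below Stat3 in all 3 libraries, by 29.4 ± 18.4 TPM, with no overlap in the main table and overlap in the second quantification. It lay above Stat5b by 16.7 ± 8.26 TPM in 3 of 3 libraries, without overlap in the main table and with overlap per coding base of the M4 counts.

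Stat5b (ENSMUSG00000020919, chr11:100780731-100850724, minus strand) and Stat5a (ENSMUSG00000004043, chr11:100859351-100885169, plus strand), the STATs of the interleukin-2 and interleukin-7 receptors, had the lowest single-gene levels. Stat5b had 29.2, 37.1 and 33.6 TPM (33.3 ± 3.93) and Stat5a 29.1, 34.5 and 30.1 TPM (31.2 ± 2.86). Their library values overlapped in all 3 tables, and the difference Stat5b minus Stat5a was 2.10 ± 1.74 TPM. Stat5a made up 49.9%, 48.2% and 47.2% of their summed level in replicates 1, 2 and 3. Its mean share was 48.4% ± 1.33 in the main table, 48.4% ± 1.63 in the second quantification and 48.9% ± 1.52 in the M4 counts per coding base. The pair summed to 64.5 ± 6.65 TPM, a level between those of Stat3 and Stat2. The pair also lay between them in the M4 counts per coding base, but in the second quantification it summed to 34.3 ± 4.24 TPM, below Stat2 in all 3 libraries. In that quantification Stat2-203, a transcript of 459 bases with a retained intron, took 27.7%, 28.6% and 38.5% of Stat2 in replicates 1, 2 and 3. The pair was not compared with Stat2 without that transcript.

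**Figure D1:**
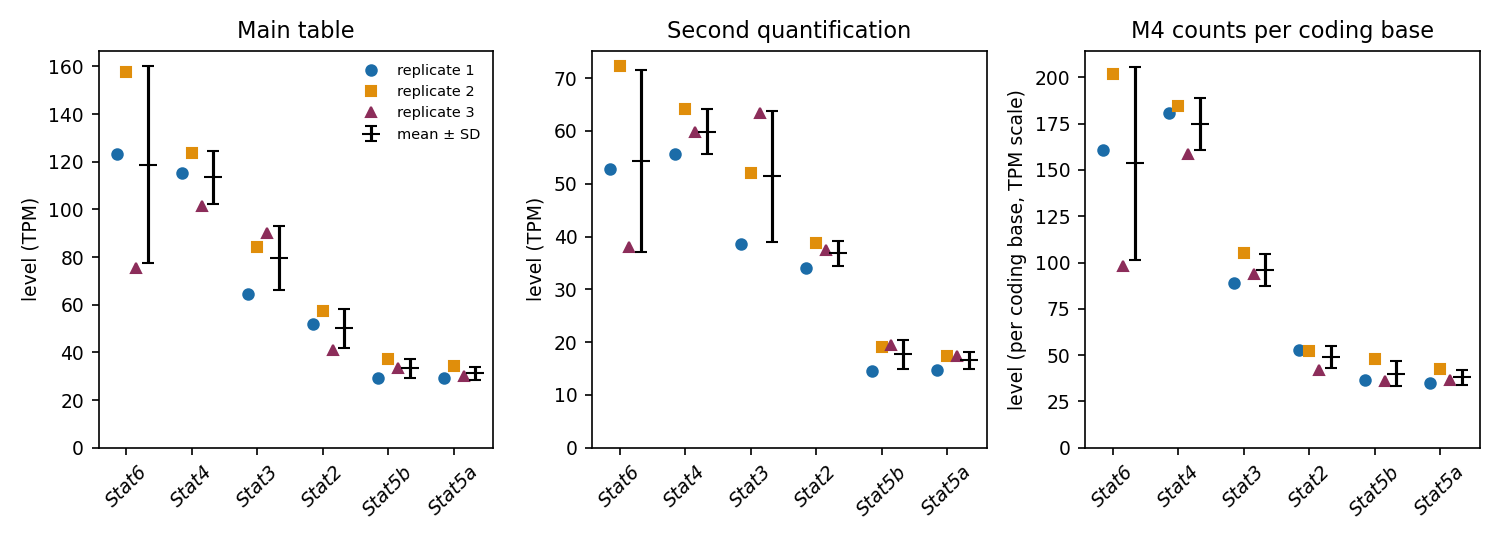
Level of each STAT gene in each library (points) with mean ± SD over 3 libraries (bars), in TPM in the main table and the second quantification and as M4 counts per coding base on a TPM scale, on linear axes with separate scales. Stat6 has the widest spread in the main table, from 75.4 to 157.6 TPM, and Stat5a and Stat5b lie close together in every panel.

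The 6 genes summed to 426 ± 62.5 TPM, of which Stat6 was 27.3% ± 6.18, Stat4 26.8% ± 1.54, Stat3 18.9% ± 4.62, Stat2 11.7% ± 0.786, Stat5b 7.87% ± 1.03 and Stat5a 7.37% ± 0.631 (SD, n = 3). The median of their log2(TPM + 1) was 5.95 ± 0.17, beside 2.61 ± 0.06 for all protein-coding genes above 0 in any library. Levels in the second quantification were lower for all 6, with 51.4 ± 12.4 TPM for Stat3, 36.8 ± 2.39 for Stat2, 17.7 ± 2.70 for Stat5b and 16.5 ± 1.54 for Stat5a. Per coding base of the M4 counts, these genes had 96.0 ± 8.46, 49.0 ± 6.17, 40.1 ± 6.60 and 38.1 ± 4.08 on a TPM scale, in the same order. In the second quantification a single short transcript, Gm29013, took 22.0%, 18.8% and 11.4% of all TPM, and the median gene stood at 0.543, 0.573 and 0.621 of its main TPM in replicates 1, 2 and 3.

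The deposited posterior SD of the gene count, a measure of how uncertain the assignment of reads is, was 0 in every library for Stat2, Stat3 and Stat6. For the other members it was at most 4.95 counts (Stat5a and Stat5b, replicate 2) and 3.74 counts (Stat4, replicate 1). In the transcript models, 11.5% of the 31-base words of Stat5a occurred in Stat5b and 15.1% of those of Stat5b in Stat5a. At 100 bases these shares were 3.44% and 4.79%. Stat4 shared 18.0% of its 100-base words with Gm28177, a transcript on the same strand that runs into Stat4 and held 33.1, 4.29 and 6.87 expected counts. Other overlaps on the opposite strand were short: 72 bases between Stat3 and Stat5a, 40 bases between Stat6 and Nab2, and 432 bases between Stat4 and the pseudogene Gm3940. No source used here says whether the counting used strand, so reads in those bases cannot be told apart.

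The next question was whether the libraries differed in these genes by more than sampling noise. Rounded expected counts were scaled to the effective library sizes (TMM scaling) and given as CPM (counts scaled to library size), and a chi-square test (2 degrees of freedom) was run per gene, with Benjamini-Hochberg adjustment over the 12997 genes averaging at least 10 counts. At an adjusted p below 0.05, 5 of the 6 STAT genes varied, all but Stat5a. Of all genes tested, 65.3% varied, and of those with a mean count at least as high as the lowest STAT gene, 89.9% did, so the STAT count is near the background. Fewer cells of a type and less RNA per cell cannot be told apart in such bulk libraries.

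Stat6 had the widest differences, at 292, 348 and 173 CPM in replicates 1, 2 and 3 and a highest-over-lowest fold of 2.01 (adjusted p = 1.76e-93, chi-square test over all genes). Of all genes tested, 19.9% had a fold at least as wide, and the median fold was 1.44. Stat2 stood at 118, 113 and 93.1 CPM, 1.27-fold apart (adjusted p = 1.71e-05 in the model across all genes). Stat3 stood at 201, 241 and 215 CPM, 1.20-fold apart (adjusted p = 3.86e-08), and Stat4 at 213, 205 and 181 CPM, 1.18-fold apart (adjusted p = 6.73e-05). Stat5b stood at 119, 135 and 136 CPM, 1.14-fold apart (adjusted p = 0.0035), and Stat5a at 82.6, 86.3 and 87.0 CPM, 1.05-fold apart (adjusted p = 0.581). All of these folds but that of Stat6 lie under the median of all genes. That comparison is not matched on abundance: of the 12997 genes tested, 2476 had a mean count at least as high as the lowest STAT gene. Folds were not compared within those genes, so the median does not show whether STAT genes were steadier than genes of like abundance.

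The genes did not share 1 pattern over the libraries. Replicate 3 was the lowest for Stat2, Stat4 and Stat6, and the highest for Stat5a and Stat5b, and it lay between the others for Stat3. Of all genes tested, 40.7% had replicate 3 lowest and 40.6% had it highest. Leaving out replicate 3 ended the calls of Stat2 and Stat4 (adjusted p = 0.49 and 0.435), leaving out replicate 2 ended that of Stat3 (adjusted p = 0.115) and leaving out replicate 1 ended that of Stat5b (adjusted p = 0.94), in the same model. The adjusted p of Stat6 stayed at or below 2.76e-12 in each setting tried for this model. With the spread of all genes added to the variance (edgeR's trended dispersion, estimated from the same libraries), 0 of 6 STAT genes varied, beside 1.31% of all genes tested, and 0 of 6 had an unadjusted p under 0.05, beside 5.5% of all genes tested. Stat6 had the lowest unadjusted value under that dispersion of edgeR, 0.069, and without replicate 1 it was 0.0439, with an adjusted p of 1.0.

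**Figure D2:**
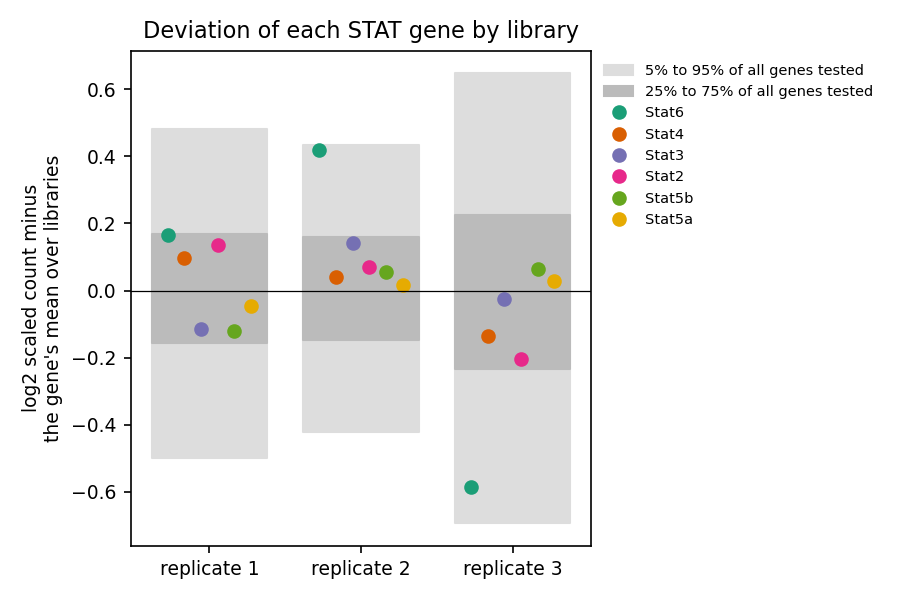
Deviation of each STAT gene (points) in each library from its own mean over libraries, in log2 of the scaled count, with the 5% to 95% and 25% to 75% ranges of all genes tested as grey bands. Stat6 lies at 0.42 in replicate 2 and -0.59 in replicate 3, and the next largest deviation is that of Stat2 in replicate 3, at -0.20.

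For each member, the protein-coding genes nearest in level were named, by Euclidean distance in log2(TPM + 1) over the 3 libraries. They were Pdia4 and Pdlim2 for Stat6 (distance 0.145 and 0.147), Spcs3 and Lsm6 for Stat4 (0.0287 and 0.0374), and Actr1a and Gmip for Stat3 (0.106 and 0.111). For Stat2 they were Tmub1 and Stk16 (0.0705 and 0.0731), for Stat5b Fam149b and Zfp445 (0.0587 and 0.0637), and for Stat5a Mief1 and Tmem39a (0.0257 and 0.0330). Stat6 had the most distant nearest genes. Pdlim2 had 135.9, 160.6 and 73.95 TPM, with the same high and low libraries as Stat6, which its choice by nearness in these same values favours.

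The M21 annotation holds 41 transcripts of these genes, 17 protein-coding and 20 with a retained intron. Transcripts were grouped into those within 6 bases of the gene's longest coding sequence, shorter protein-coding ones and noncoding ones. IsoPct is the deposited percent of a gene's transcripts, per length. Because IsoPct divides by length, a short transcript with few reads can take a large percent, so the share of expected counts is given beside it.

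Of the 6 genes, Stat3 showed the largest difference between libraries in the IsoPct of these classes. Its full-length coding transcripts had an IsoPct of 73.9, 75.1 and 46.9 in replicates 1, 2 and 3, the beta transcript Stat3-202 had 9.14, 8.28 and 12.5, and noncoding transcripts had 17.0, 16.6 and 40.6. Replicate 3 stood apart in all 3 classes. Beta took 11.0%, 9.93% and 21.1% of the alpha plus beta TPM, a mean of 14.0% ± 6.14 (SD, n = 3). By expected counts, beta took 14.5% (308.5 of 2130 counts, 95% Wilson interval 13.0 to 16.0) in replicate 1, 13.1% (11.8 to 14.5) in replicate 2 and 27.0% (24.6 to 29.4) in replicate 3. The interval of replicate 3 lies apart from the other two, and intervals cover counting error only. The second quantification gave a lower share, 5.88%, 5.74% and 11.8%, with replicate 3 again highest. The model of Stat3-202 reaches 1712 bases further 3′ than Stat3-203, so its estimate also draws on reads of the 3′ end and not only on the join shown above.

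Within alpha, Stat3-201, whose coding sequence is 1 codon shorter at 2307 bases, took 3.68%, 2.74% and 6.19% of the level. The retained-intron transcript Stat3-209, of 408 bases, had an IsoPct of 3.36, 4.01 and 17.5 on 4.45, 5.88 and 20.8 expected counts. Stat3-205 had 2.98, 1.74 and 6.86, a mean of 3.86 ± 2.67 that was 2.36 without replicate 3 and 10.3 in the second quantification, and Stat3-208 averaged 2.16 ± 0.0569. Without replicate 3, the mean of Stat3-209 was 3.69 instead of 8.28. By expected counts, noncoding transcripts held 2.56%, 2.59% and 7.05% of Stat3 in replicates 1, 2 and 3, far less than by IsoPct.

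The estimates assigned Stat4 mainly to its upstream start, and the split between starts rests on reads outside the coding sequence. Stat4-202 starts at chr1:51987148 and Stat4-201 at chr1:52008243, 21095 bases downstream, and both hold the same 23 coding exons and 2244 coding bases. Stat4-202 took 86.7%, 87.5% and 86.0% of the summed level of both (86.7% ± 0.788), and 81.0% ± 3.25 in the second quantification. No shorter protein-coding Stat4 transcript is annotated in M21. The retained-intron transcripts Stat4-203 and Stat4-204 had a mean IsoPct of 8.30 ± 2.92 and 8.28 ± 0.896.

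Stat5b used both of its starts. Stat5b-201 starts at chr11:100850724 and Stat5b-202 at chr11:100822528, 28196 bases downstream, with the same 18 coding exons. Stat5b-201 took 53.2%, 46.8% and 47.4% of the level of both (49.1% ± 3.50), and 39.0% ± 4.24 in the second quantification. These forms differ ahead of the coding sequence, so the split rests on reads there.

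For Stat5a, Stat5a-202 was the leading form, with an IsoPct of 70.2, 74.7 and 66.6. Its coding sequence of 2379 bases is 12 bases shorter than that of Stat5a-203, which starts 828 bases downstream, shares 16 of the 18 coding exons and has another coding end. Stat5a-203 took 24.8%, 11.9% and 26.5% of the coding forms by TPM, lowest in replicate 2 (21.1% ± 7.98, and 19.5% ± 4.37 in the second quantification). The deposited credible intervals of its TPM overlap, at 1.62 to 10.1, 1.21 to 6.67 and 2.33 to 10.2 in replicates 1, 2 and 3. The lower share in replicate 2 is therefore within the uncertainty of the estimates. Stat5a-201 had an IsoPct of 0, 4.01 and 0 (5.20 on average by posterior means), and the noncoding Stat5a-207 had 3.42, 3.58 and 9.34.

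Stat6 and Stat2 each had 1 leading coding transcript. Stat6-201 had an IsoPct of 76.8, 79.0 and 75.1 and held 95.8% to 96.6% of the counts. Stat6-202, of 609 bases with an incomplete coding end, had 14.7, 11.0 and 17.9, but a mean share of 1.63% ± 2.83 in the second quantification. Stat6-204 and Stat6-205 had a mean IsoPct of 6.15 ± 0.22 and 2.14 ± 0.922, and the share of Stat6-205 in the second quantification was 5.98%. Stat2-201 had an IsoPct of 59.7, 55.2 and 60.9 and held 91.2%, 88.9% and 91.9% of the counts. Stat2 has 6 transcripts with retained introns. Stat2-206 had an IsoPct of 18.3, 26.3 and 9.45 (a mean of 18.0, against 8.93 in the second quantification), Stat2-207 had 8.04, 8.34 and 21.1, and Stat2-205 had 1.63, 2.88 and 0. The mean IsoPct of the other 3 was 2.07 (Stat2-203), 3.80 (Stat2-204) and 3.53 (Stat2-208). Stat2-203, named after its values were seen, took 27.7%, 28.6% and 38.5% of Stat2 in the second quantification.

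**Figure D3:**
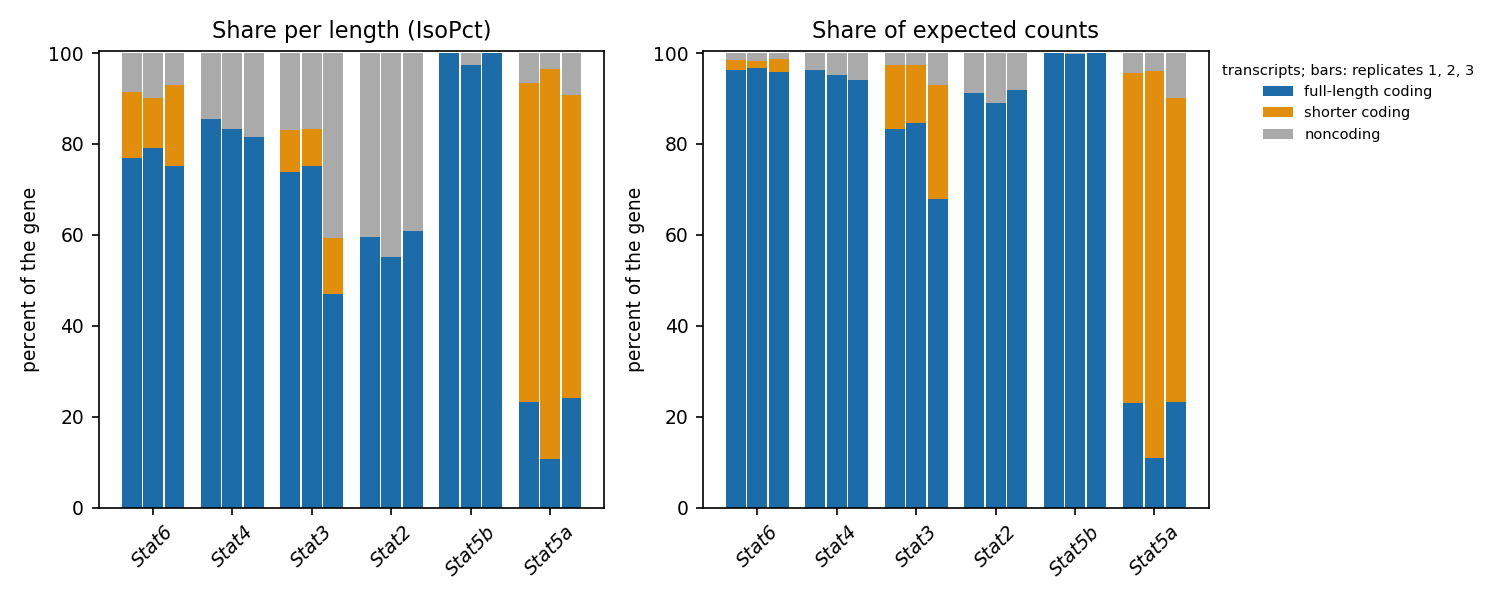
Percent of each STAT gene in full-length coding, shorter coding and noncoding transcripts, by IsoPct (left) and by share of expected counts (right), with 1 bar for each of replicates 1, 2 and 3. In Stat5a the longest coding form is Stat5a-203, so Stat5a-202 falls in the shorter class although its coding sequence is only 12 bases shorter. Stat5a-202 and Stat5a-203 share 16 of their 18 and 17 coding exons. In Stat3 the noncoding IsoPct is 40.6 in replicate 3.

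Retained-intron transcripts took 14.3%, 15.4% and 20.6% of the STAT genes' summed TPM in replicates 1, 2 and 3, beside 7.51%, 8.38% and 9.48% over all protein-coding genes. By expected counts they took less in the STAT genes, 2.75%, 3.09% and 4.02%, than over all protein-coding genes, 6.19%, 6.76% and 8.14%. The 2 measures thus place the STAT genes on opposite sides of the background.

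**Figure D4:**
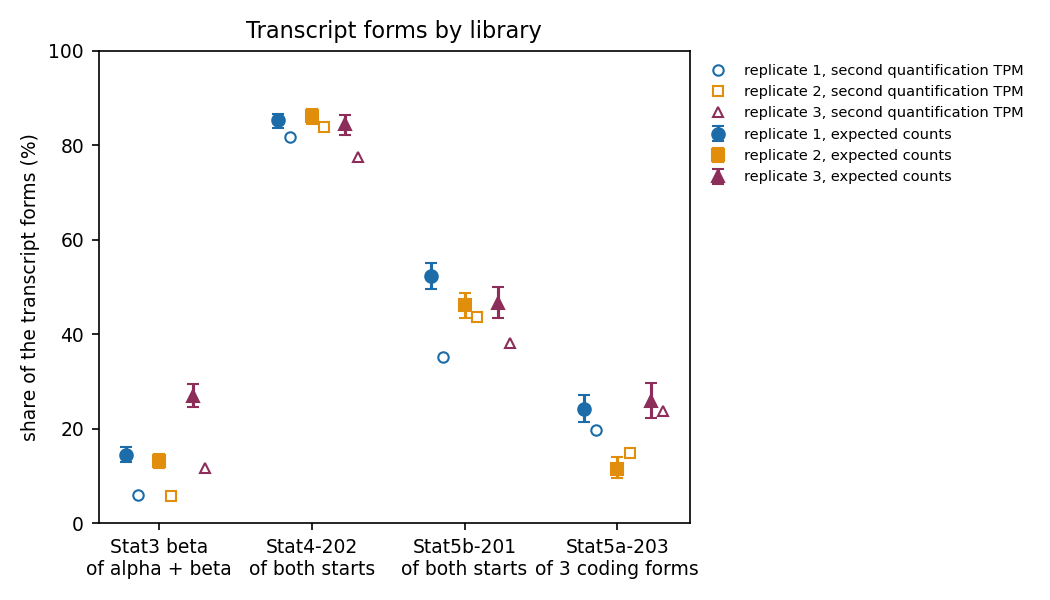
Share of 4 transcript forms of the STAT genes in each library, from expected counts with 95% Wilson intervals (filled) and from the second quantification in TPM (open). Stat3 beta is highest in replicate 3 by both measures, and the points of Stat4-202 lie between 77.5% and 86.2%. The Wilson intervals cover counting error only, and not the uncertainty of dividing reads between forms.

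Promoters are shown for the genes with a split between starts, and for Stat2 because it holds the letters marked. The windows are the 250 bases upstream of RefSeq starts on GRCm38.p6, printed 5′ to 3′ along the gene's strand. Capitals mark the letters TTTCNNTTTC, an interferon-stimulated response element (ISRE) core, on either strand. The Stat4 starts lie at the M21 starts within 3 bases, the Stat5b starts within 143 bases of Stat5b-201 and 42 bases of Stat5b-202, and the Stat5a starts at those of Stat5a-202 and Stat5a-203. For Stat5a the share given above is one of coding forms and does not measure use of the starts. It leaves out the noncoding Stat5a-207, which starts at chr11:100860485, beside Stat5a-203 at chr11:100860484.
Stat4 upstream start, chr1:51986898-51987147, plus strand: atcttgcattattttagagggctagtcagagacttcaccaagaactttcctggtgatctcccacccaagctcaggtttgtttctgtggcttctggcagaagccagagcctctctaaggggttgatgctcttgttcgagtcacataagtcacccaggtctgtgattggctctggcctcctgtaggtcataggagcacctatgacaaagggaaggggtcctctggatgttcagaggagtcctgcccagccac
Stat4 downstream start, chr1:52007990-52008239, plus strand: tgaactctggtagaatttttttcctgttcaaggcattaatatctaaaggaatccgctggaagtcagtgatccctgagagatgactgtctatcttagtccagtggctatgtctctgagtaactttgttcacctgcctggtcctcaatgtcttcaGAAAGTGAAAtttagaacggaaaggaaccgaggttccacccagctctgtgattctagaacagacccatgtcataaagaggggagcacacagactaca
Stat5b upstream start, chr11:100850582-100850831, minus strand: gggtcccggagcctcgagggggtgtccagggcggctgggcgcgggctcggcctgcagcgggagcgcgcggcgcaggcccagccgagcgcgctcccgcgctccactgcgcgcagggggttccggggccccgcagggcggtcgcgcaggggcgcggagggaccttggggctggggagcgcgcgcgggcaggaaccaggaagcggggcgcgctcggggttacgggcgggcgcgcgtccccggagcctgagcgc
Stat5b downstream start, chr11:100822571-100822820, minus strand: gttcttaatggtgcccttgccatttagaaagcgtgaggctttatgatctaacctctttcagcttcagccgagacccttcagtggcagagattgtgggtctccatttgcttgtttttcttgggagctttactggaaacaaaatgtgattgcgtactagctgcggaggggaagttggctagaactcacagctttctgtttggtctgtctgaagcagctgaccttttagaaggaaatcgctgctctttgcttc
Stat5a upstream start, chr11:100859406-100859655, plus strand: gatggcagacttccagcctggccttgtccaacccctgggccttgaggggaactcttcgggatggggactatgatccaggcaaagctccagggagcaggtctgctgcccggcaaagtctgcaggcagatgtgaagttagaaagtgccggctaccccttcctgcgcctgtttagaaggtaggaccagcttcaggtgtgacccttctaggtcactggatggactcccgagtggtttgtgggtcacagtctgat
Stat5a downstream start, chr11:100860234-100860483, plus strand: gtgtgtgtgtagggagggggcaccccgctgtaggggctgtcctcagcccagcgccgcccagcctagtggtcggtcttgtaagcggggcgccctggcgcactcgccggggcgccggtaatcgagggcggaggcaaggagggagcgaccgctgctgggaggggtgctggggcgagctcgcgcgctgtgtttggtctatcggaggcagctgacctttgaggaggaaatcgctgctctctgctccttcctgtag
Stat2, chr10:128270248-128270497, plus strand: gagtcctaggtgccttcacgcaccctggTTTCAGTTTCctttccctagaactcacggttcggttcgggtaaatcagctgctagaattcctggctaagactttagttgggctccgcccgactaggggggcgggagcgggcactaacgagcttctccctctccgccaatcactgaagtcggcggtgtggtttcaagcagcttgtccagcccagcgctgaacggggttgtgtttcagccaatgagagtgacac
The Stat5b upstream window had a GC content of 82.0% with 40 CG pairs, against 46.4% and 5 at its downstream start. The Stat4 windows had 51.6% with 1 CG pair upstream and 44.0% with 3 downstream, and the Stat5a windows 57.6% with 5 upstream and 68.0% with 21 downstream. The ISRE letters stood once in the Stat2 window and once in that of the minor Stat4 start, and in none of the other 7 STAT windows, beside 3.44% of all 32851 promoter windows (250 bases before to 50 after a start). The letters TTCNNNGAA, the core of the gamma-activated site that STAT pairs bind, stood in 0 of the 9 STAT windows and in 8.30% of all windows. A match is a description of letters, and binding was not measured.

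The pathway around the STAT genes was described by lists of 58 genes, of which 55 had at least 1 TPM in every library. Of the 55 that could be tested, 48 varied between libraries beyond sampling noise (87.3%). Of all genes tested 65.3% did, and of those at least as abundant as Stat5a 89.9%. Beyond the trended dispersion, 3 of the 55 varied, beside 1.31% of all genes tested. No comparison with a control exists, so these are counts of differences between technical replicates.

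All 4 JAK genes were detected. Jak1, a kinase of most cytokine receptors that use STATs in T cells, was the highest at 299 ± 50.3 TPM, and Jak2 the lowest at 13.8 ± 2.31 TPM (SD, n = 3 each). All 7 SOCS genes, feedback inhibitors of JAKs and receptors, were detected. Cish, a STAT5 target and inhibitor of the interleukin-2 receptor, was the highest at 129 ± 20.2 TPM and Socs1 the lowest at 4.14 ± 2.01 TPM. Of the 7 phosphatase and PIAS genes, Ptpn1 was the highest at 128.6 ± 12.2 TPM and Ptpn11 the lowest at 8.06 ± 0.578 TPM.

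The receptors upstream of STAT5 held the highest gene of all lists. Il2rg, the common gamma chain of the interleukin-2 family, had 1249, 1497 and 592 TPM in replicates 1, 2 and 3, and Il9r was the lowest at 3.30 ± 0.237 TPM. Il7r, the interleukin-7 receptor chain, had 92.8, 147.6 and 336.6 TPM, highest in replicate 3, and varied beyond the trended dispersion (adjusted p = 6.67e-05 across all genes). Of the 6 receptor genes, 4 varied beyond sampling noise (66.7%), and of the 7 STAT5 targets, 6 did (85.7%). The shares were 65.3% for all genes tested and 89.9% for those at least as abundant as Stat5a. Among the targets, Pim1, a survival kinase, was the highest at 272 ± 46.9 TPM and Osm the lowest at 16.4 ± 3.39 TPM. The Stat5 genes themselves differed between libraries by 1.14-fold (Stat5b) and 1.05-fold (Stat5a).

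For STAT6, Il4ra, the interleukin-4 receptor chain, had 71.9 ± 12.9 TPM and Il13ra1 0.287 ± 0.162 TPM. Of its targets, Gata3, a type 2 transcription factor, had 94.3 ± 20.3 TPM, and Il24 had 0 counts in every library, which allows up to 3 counts per library. For STAT3, 6 of 7 receptor genes were detected, with Il27ra the highest at 187 ± 93.3 TPM and Il23r the lowest at 0.263 ± 0.152 TPM. Among its 5 targets, Pim1 was again the highest and Bcl3 the lowest at 12.7 ± 2.43 TPM.

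For STAT4, the receptor chains of interleukin-12 differed in level. Il12rb1 had 21.7 ± 8.25 TPM, and Il12rb2, the chain that STAT4 binds, had 1.02, 1.28 and 5.71 TPM on 25.8, 26.6 and 87.7 expected counts. Il12rb2 was highest in replicate 3 and varied beyond the trended dispersion (adjusted p = 0.00928 across all genes), while Stat4 itself was lowest in that library. Of the 4 targets, Il18r1 was the highest at 72.0 ± 14.3 TPM and Tbx21, the type 1 transcription factor, the lowest at 4.38 ± 1.27 TPM.

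Genes around STAT2 had their lowest scaled count in replicate 3, as Stat2 did: 3 of 3 receptor and partner genes and 7 of 7 targets, beside 40.7% of all genes tested. This count was made after the values were seen, for every list, and these lists had the highest shares. The shares of the other lists ran from 0 of 1 gene (STAT6 receptor) to 4 of 6 genes (STAT5 receptors, 66.7%). In TPM, Ifnar2 was lowest in replicate 1 (38.6, against 39.1 and 40.1 in replicates 2 and 3). Irf9, the DNA-binding partner of STAT2, was the highest of the first list at 107 ± 32.2 TPM, and Ifnar2 the lowest at 39.3 ± 0.728 TPM. Among the targets, Irf7, an interferon regulatory factor, had 84.8, 97.0 and 45.8 TPM and was the highest by mean, and Mx1 the lowest at 7.15 ± 2.79 TPM. Ifit1, an interferon-induced antiviral gene, had 56.2, 38.2 and 13.0 TPM and varied beyond the trended dispersion (adjusted p = 0.0335 across all genes). Stat2 differed less between libraries, by 1.27-fold in scaled counts.

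**Figure D5:**
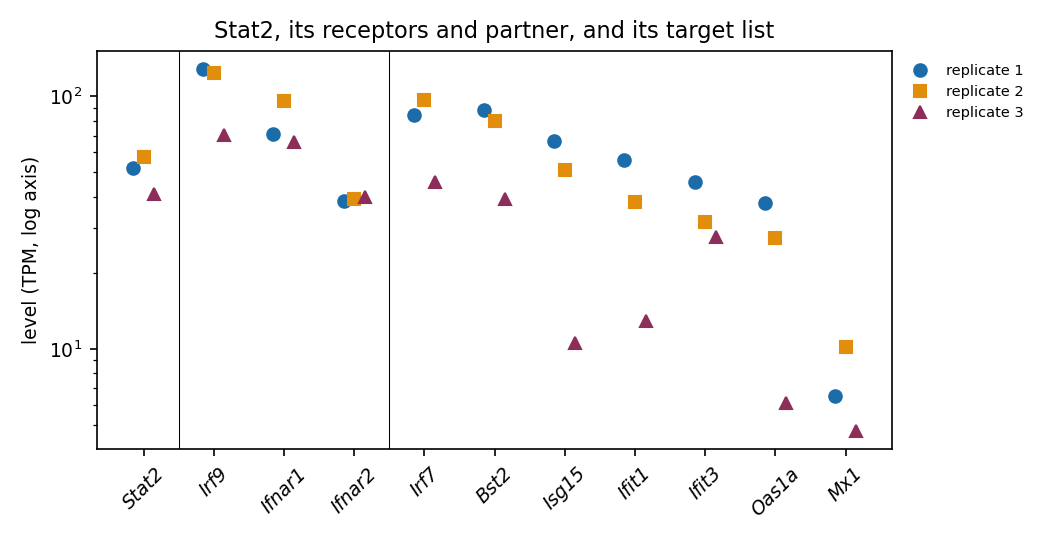
Level in TPM (log axis) of Stat2 (left), its receptors and partner (middle) and its target list (right) in each of the 3 libraries. Replicate 3 has the lowest TPM for Stat2 and for all 7 targets, and Ifnar2 lies close together in the 3 libraries.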

How the data were processed

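PolyA-selected RNA of activated regulatory T cells was measured in 3 libraries of 1 group, with replicate numbers read from the labels' descriptions. On mm10 and annotation M21, the authors deposited main tables for genes and for transcripts, which hold expected counts, TPM and IsoPct (percent of a gene's TPM). Per the file headers they also hold posterior mean TPM and scores, namely credible-interval bounds of TPM, printed here only for Stat5a-203, and the posterior SD of the count. They were made from transcriptome alignments. No source used here names the program, but the columns are named as RSEM names them. The second transcript table deposited holds estimated counts and TPM made from the read files and an index, with column names as kallisto writes them and no program given. The M4 table, also deposited, holds whole-number counts per gene on annotation M4, taken from an alignment with an unnamed counter.

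IDs without version matched 22195 of 22457 M4 genes to M21. M4 counts were divided by the number of bases coding in any transcript of the gene (2443 for Stat5a) and scaled as TPM is. This rests on the inference that they cover coding sequence. In every library M4 counts exceeded the expected counts for Stat2, Stat4, Stat5a and Stat6 and lay below them for Stat3 and Stat5b. For Stat4 they were 4306, 3787 and 2352 in replicates 1, 2 and 3, against 2315, 2011 and 1212 expected counts. The reason was not tested. Of the 81881 entries of the main gene table, the 55536 mouse genes were kept. Expected counts were rounded for tests. Effective library sizes and trended dispersions came from edgeR 4.0.16 in R 4.3.3, and size factors of DESeq2 1.42.0 were an alternative. The chi-square tests used scipy 1.17.1 and were tested on simulated data. The groups hold no contrast, so edgeR's quasi-likelihood test was not used. Genes below a mean count of 10 were left out of tests. A count of 0 allows up to 3 counts, or 0.273, 0.309 and 0.450 CPM in replicates 1, 2 and 3. Wilson intervals at 95% and these floors cover counting error only, since reads that carry no molecular identifiers may repeat a molecule. The SD over libraries is the spread between these libraries, which may be technical, since nothing says that they came from separate cultures.

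Transcript models and coding sequences came from GENCODE M21 (mm10) and promoter windows from RefSeq (GRCm38.p6), where all 6 genes matched by symbol. Alignments used Biopython 1.88. Protein sequences were not used here. The text names all 6 genes, their transcripts with a mean IsoPct of at least 5 or a mean expected count of at least 10, and the highest, the lowest and the trended-dispersion genes of each list. It also names the 2 nearest genes of each member. The members and lists were chosen with earlier results of these data known. Alternatives were other quantifications, posterior means, other scalings, no filter on low counts and each library left out. Rescaling to protein-coding genes and the M4 counts in the trended model were added after seeing the data.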

Additional observations from a re-analysis of the deposited data

How the results depend on the processing

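The level of each STAT gene depended on the table, and the text gives each table's value. The number of STAT genes varying between libraries was 5 of 6 with TMM scaling, DESeq2's size factors, total counts and no filter on low counts, and 6 of 6 with the M4 counts. Leaving out each replicate in turn gave 3 to 4 STAT genes and 4187 to 6994 genes in all, against 8493 in the full set of libraries. The lowest values came without replicate 3, where Stat3, Stat5b and Stat6 varied. All genes called numbered 8488 to 8497 with other scalings, 9010 of 27819 with no filter and 7989 of 11005 with the M4 counts. No STAT gene varied beyond the trended dispersion in any of these settings, total counts not being run for that model. Stat3 beta took 14.0% of alpha plus beta by TPM and 7.80% in the second quantification, and 10.5% to 16.0% without 1 library. The Stat5a share of the Stat5 pair kept within 1 SD in every setting. Of the 24 named transcript shares, 14 moved by more than 1 SD in the second quantification and 4 with posterior means. In the rescaling to protein-coding genes, added after seeing the data, Stat6 averaged 141 TPM and Stat4 135 TPM in the main table, and 99.1 and 108.6 TPM in the second quantification. No paired analysis was possible because all libraries belong to 1 group. Replicate 3 was the shallowest library, and the effect of depth on transcript shares was not tested.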
